A study of Mus musculus with 8 samples.

Results

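Macrophages of the parietal bone were selected from single cell RNA sequencing data of newborn mouse pups, and 1233 of the 46420 cells that passed quality control (2.66%) met the rule. Quality control asked for 500 or more genes detected in a cell and for mitochondrial transcripts below 10%. It was counted as a macrophage when at least 3 of the 6 genes C1qa, C1qb, C1qc, Mrc1, Adgre1 and Csf1r had at least 2 unique molecular identifiers (UMIs, 1 for each captured transcript) each. The cell also had to hold under 3 UMIs of Acp5 (an osteoclast enzyme), under 10 of S100a8 (a neutrophil protein), and Col1a1 and Col2a1 (collagens of bone and cartilage) each under 1% of its UMIs. These 10 genes chose the cells, so their levels are a description of the rule.

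There were 8 libraries, 4 from wild type (WT) and 4 from heterozygous (Het G610C) pups of the strain B6.129(FVB)-Col1a2tm1Mcbr/J, aged 4 to 5 days. The Het pups carry 1 copy of a Col1a2 allele with a glycine to cysteine change in the triple helix of type I procollagen, a model of osteogenesis imperfecta, and the WT pups carry none. The WT libraries are S1, S2, S5 and S6, and the Het libraries are S3, S4, S7 and S8. Kit version 3 and Cell Ranger 5.0.0 were used for S1 to S4, kit version 3.1 and Cell Ranger 6.0.1 for S5 to S8, so kit and software cannot be told apart. Each library pooled cells of up to 5 pups of 1 genotype, and the p-values below therefore measure the spread between pools. No library held sorted cells, so the macrophages were taken as they came in the digest of the whole bone.

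Macrophages are phagocytes that live in almost every tissue. They clear dead cells and debris through surface receptors, degrade the cargo in lysosomes, recycle iron from red cells and present peptides on MHC molecules. In bone they sit on bone surfaces, around vessels and in the marrow, where some form the centre of erythroblast islands. They share the CSF1 receptor and an origin in the myeloid lineage with osteoclasts, the cells that resorb bone.

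S1 held 235 macrophages, S2 61, S5 199 and S6 167, or 662 in WT. S3 held 119, S4 254, S7 130 and S8 68, or 571 in Het. Their median depth was lowest in S4 (3945 UMIs per cell) and highest in S7 (18007.5), and the macrophages of a library summed to between 517741 (S2) and 2441011 (S7) UMIs. The kit 3.1 libraries were deeper per cell than S3 and S4, and S2 gave the fewest cells and the smallest sum.

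The cells carried macrophage genes that the rule did not use. Levels are given as CPM, the UMIs of a gene as a share of all UMIs of the macrophages of a library, scaled to a total of 1000000. Tyrobp, the signalling adaptor of many myeloid receptors, was found in 97.6% to 100% of the macrophages of each library. Ms4a7, a membrane protein of tissue macrophages, was at 744 to 1100 CPM, against 4.29 to 36.5 CPM in the monocytes and 0 to 82.5 CPM in the osteoclast lineage cells of the same libraries. Ptprc, the pan-leukocyte CD45 gene, was at 296 to 361 CPM, Cd68, a lysosomal membrane protein of macrophages, at 478 to 728 CPM, Spi1, the transcription factor PU.1, at 399 to 512 CPM, and Cx3cr1, the fractalkine receptor, at 303 to 647 CPM. Each of them was present in all 8 libraries.

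Of the 10 microglia markers, which summed to 595 to 1391 CPM, 9 were detected. The ADP receptor P2ry12 was at 42.5 to 147 CPM and Tmem119 at 20.4 to 54.3 CPM, while the transcription factor Sall1 was at 0 in all 8 libraries. The markers of T and NK cells summed to 4.58 to 15.5 CPM over 8 genes, with Cd3e, Trbc2 and Gzma at 0 throughout. Those of dendritic cells summed to 26.2 to 57.9 CPM over 10 genes. Of 14 myeloid markers outside the rule, 5 passed as higher and 5 as lower in macrophages than in monocytes in the comparison below (median log2 difference 0.17). Against the osteoclast lineage 11 passed as higher and 2 as lower (median 3.32). Genes outside the rule thus marked the cells as myeloid, and this list as a whole did not separate them from monocytes.

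Of the 1233 cells, 805 met all 6 genes of the rule, 274 met 5, 80 met 4 and 74 met 3. Just outside it, 153 cells met 2 of the genes within the same limits, and 94.8% of them held Tyrobp, against 91.9% of the cells that met 3. The limits on Acp5, S100a8 and the collagens left out 137 cells with 3 or more of the genes, 50 of them for Acp5.

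Transcripts of other cell types came with the macrophages, and their part in the results below was not tested. At least 2 markers of 1 other class, with at least 3 UMIs each, were found in 280 macrophages, for 183 of them osteoblast genes and for 143 cartilage genes. Their share was 7.66% in S1, 11.5% in S2, 14.3% in S3 and 8.27% in S4, and 28.1% in S5, 33.5% in S6, 60.8% in S7 and 38.2% in S8. It was higher in every kit 3.1 library than in every kit 3 library. So was the median depth of the macrophages (9109 to 18007.5 against 3945 to 7714 UMIs). The cut is a fixed number of UMIs, which deeper cells reach more easily, and the part of depth was not tested. As a share of UMIs, osteoblast genes overlapped between the kits, at 603 to 2333 CPM with kit 3 and 1244 to 2000 CPM with kit 3.1. The summed level of 8 erythroid genes was 15025 CPM in S1, 24114 in S2 and 20330 in S3, and 33.6 to 426 CPM in the other 5 libraries. Neutrophil genes summed to 243 CPM in S1, 141 in S2 and 2.70 to 19.8 CPM elsewhere, and cartilage genes to 31.5 CPM in S1, 50.2 in S2 and 255 to 1746 CPM elsewhere. No macrophage barcode was shared between libraries, and 1 to 24 barcodes of all cells were shared in each of the 28 pairs of libraries.

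The first question was whether macrophages made up a different share of the cells in Het bone. They made up 4.92% of the cells in S1, 1.28% in S2, 1.75% in S5 and 3.48% in S6 in WT, and 3.49% in S3, 3.39% in S4, 2.45% in S7 and 1.51% in S8 in Het. The highest and the lowest share were both in WT, and the Het libraries lay within their range. The mean was 2.86% ± 1.67 (SD, n = 4) in WT and 2.71% ± 0.929 (SD, n = 4) in Het, a difference of -0.149 percentage points (exact permutation test over libraries, two-sided p = 0.886, with 0.0286 the smallest p that 70 assignments allow). It was 0.338 within kit 3 and -0.637 within kit 3.1.

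Out of the macrophages and all cells with at least 3 of 11 haematopoietic markers, which 1 to 8 macrophages of a library lacked, macrophages made up 8.71% in S1, 2.76% in S2, 32.7% in S5 and 43.9% in S6 in WT, and 47.0% in S3, 34.4% in S4, 52.0% in S7 and 46.6% in S8 in Het. S1 and S2 lay far below the other 6 libraries, which overlapped. The mean was 22.0% ± 19.5 (SD, n = 4) in WT and 45.0% ± 7.5 (SD, n = 4) in Het, a difference of 23.0 percentage points (exact permutation test, p = 0.0571). It was 35.0 within kit 3 and 10.9 within kit 3.1. Without the macrophages that held markers of another class it was 14.5 (exact permutation test, p = 0.171), and within kit 3.1 then -1.74. In S1 and S2, cells with haematopoietic markers were 56.5% and 46.5% of all cells, against 3.21% to 9.75% in the other libraries, and cells with over 1% Col2a1 were 2.14% and 3.17%, against 15.1% to 60.6%. The 2 suspensions thus differed from the others in their make-up, and the part of this in the share was not tested.

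**Figure D1:**
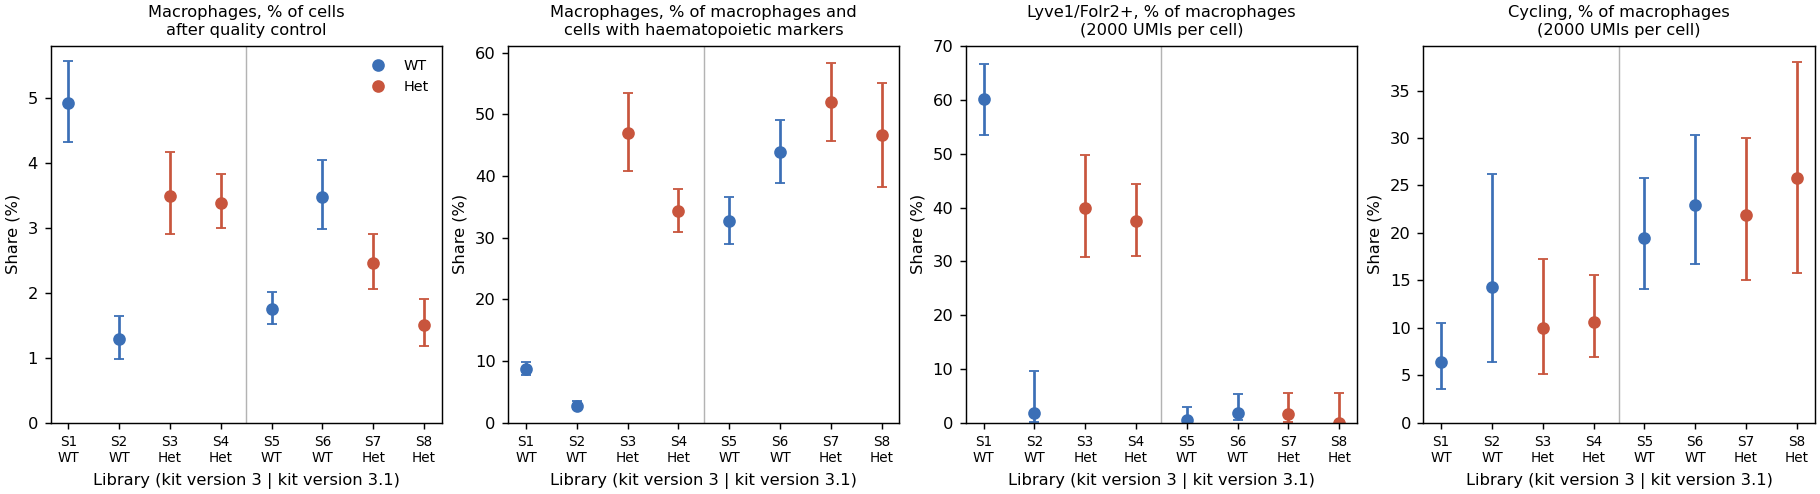
Share of macrophages among all cells and among macrophages and cells with haematopoietic markers, and shares of Lyve1/Folr2+ and cycling macrophages (percent, after thinning each cell to 2000 UMIs), in each library; bars are exact Clopper-Pearson 95% intervals. The Lyve1/Folr2+ share was 60.3% in S1, 40.0% in S3 and 37.5% in S4 and at most 1.86% in the other 5 libraries.

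Genes of long-lived resident macrophages varied widely between libraries. Lyve1, a hyaluronan receptor on chromosome 7 (GRCm38, 110850607 to 110863239), was at 1063 CPM in S1, 468 in S3 and 622 in S4, and at 15.5 in S2, 27.9 in S5, 32.9 in S6, 60.2 in S7 and 22.5 in S8. Folr2, a folate receptor also on chromosome 7 (101839988 to 101857194), was at 1101 CPM in S1, 472 in S3 and 538 in S4, and at 71.5 in S2, 106 in S5, 93.2 in S6, 117 in S7 and 94.4 in S8. For both genes S1, S3 and S4 were the high libraries, 1 WT and 2 Het, and no other library overlapped them.

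Other genes of the same list followed this order. Cd163, the scavenger receptor for haemoglobin bound to haptoglobin, was at 423, 270 and 301 CPM in S1, S3 and S4 and at 41.4 to 82.5 CPM elsewhere. Ednrb, the endothelin B receptor, was at 906, 332 and 431 CPM in these 3 libraries and at 16.2 to 52.6 CPM in the rest. F13a1, the A chain of coagulation factor XIII, was at 1582, 1115 and 1369 CPM, against 147 to 593 CPM. The carbonyl reductase Cbr2 was at 383, 246 and 296 CPM, against 34.8 to 86 CPM. Stab1, a scavenger receptor, and Igf1, a growth factor for bone cells, varied less, at 456 to 971 CPM and 143 to 372 CPM over the 8 libraries. Vsig4, a complement receptor of liver and peritoneal macrophages, was at 0 to 4.51 CPM and so near the limit of detection throughout.

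S2 stood apart in genes of erythrophagocytic macrophages. Spic, the transcription factor of red pulp macrophages, was at 218 CPM in S2, 28 in S1 and 2.70 to 23.9 CPM in the other 6 libraries. Vcam1, the adhesion molecule of erythroblast island macrophages, was at 574 CPM in S2, 193 in S1 and 15.1 to 66.7 CPM elsewhere. Hmox1, which degrades haem, was at 1327 CPM in S2 and 166 to 588 CPM in the others. Fabp5, a fatty acid carrier, was at 875 CPM in S2 and 77.4 to 311 CPM elsewhere. S2 was the highest library for each of these 4 genes, and S1 second for Spic and Vcam1. In a principal component analysis of the summed macrophages, the first component (60.3% of the variance) separated the kits and the second (17.1%) set S2 apart.

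Some levels went with the kit. Apoe, a lipid carrier, was at 7793 to 15254 CPM with kit 3 and 1789 to 2892 CPM with kit 3.1. Tnfrsf11a, which encodes RANK, the receptor through which osteoclast precursors receive the RANKL signal, was at 81.4, 81.1, 84 and 82.8 CPM in S1 to S4 and at 275, 292, 419 and 421 CPM in S5 to S8. The chemokine Cxcl2 was at 39.7 to 160 CPM with kit 3 and 488 to 795 CPM with kit 3.1. The kits did not overlap for any of these genes, and because kit, software, litters and day of preparation may all differ between the 2 sets, the source of the difference cannot be told apart.

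**Figure D2:**
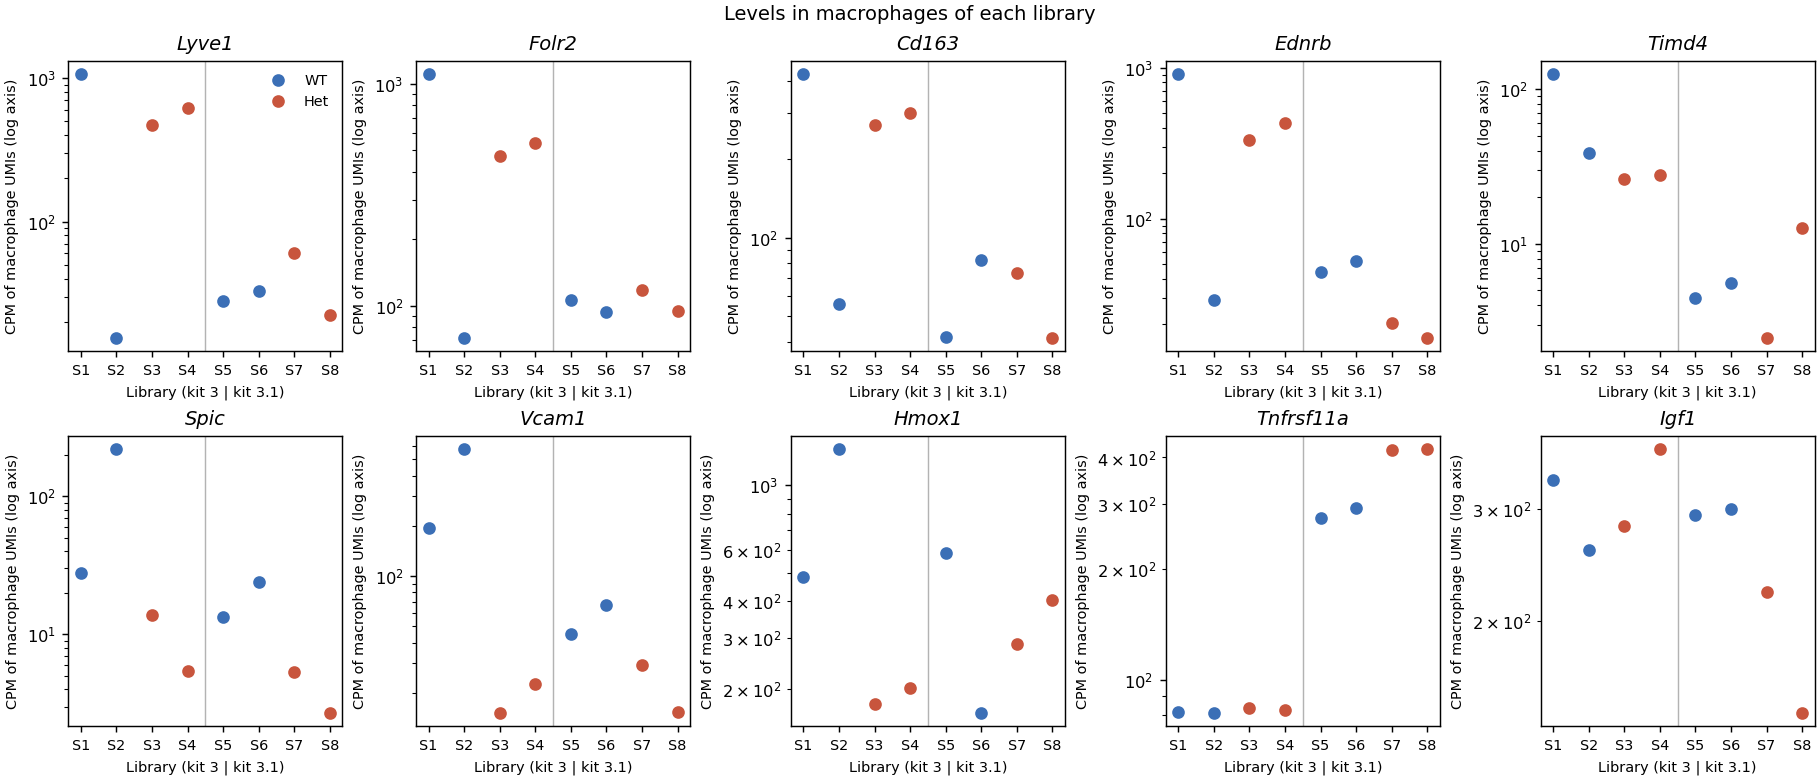
Level of 10 genes in the macrophages of each library (CPM, log axis), each point 1 library. Lyve1, Folr2, Cd163 and Ednrb were high in S1, S3 and S4, Spic, Vcam1 and Hmox1 were highest in S2, and Tnfrsf11a was at 275 to 421 CPM with kit 3.1 against 81.1 to 84 CPM with kit 3.

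To describe how the macrophages differed among themselves, each cell was thinned to 2000 UMIs, which left out 36 WT and 51 Het cells that were shallower, and gated on 3 gene sums. A Lyve1/Folr2+ cell held at least 3 UMIs of these 2 genes together. Such cells were 60.3% of the macrophages in S1, 1.79% in S2, 0.526% in S5 and 1.86% in S6 in WT, and 40.0% in S3, 37.5% in S4, 1.56% in S7 and 0% in S8 in Het (0 of 66 cells, which allows up to 5.44%). As with the levels, S1, S3 and S4 did not overlap the other libraries. Het minus WT was 3.65 percentage points (exact permutation test, p = 0.971, adjusted over the 3 gates 0.971). Without thinning the shares were 9.84% in S2, 14.6% in S5, 23.4% in S6, 38.5% in S7 and 26.5% in S8, and 51.2% to 66.0% in S1, S3 and S4. As a background, monocytes, osteoclast lineage cells and up to 1000 randomly drawn cells without haematopoietic markers per library were thinned alike. Of the drawn cells, 506 to 947 per library had 2000 UMIs. None of these cells passed this gate in any library, so free RNA of these genes was not detectable in them by this gate. Intervals and limits given here cover counting error only.

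For levels inside and outside the gates whole cells were used, and a positive cell had to hold at least 3 UMIs of the gate genes and at least 0.1% of its UMIs in them. In S1, S3 and S4, 291 Lyve1/Folr2+ macrophages by this gate were set beside the 317 others of the same libraries. This is a description without a test, because the gate and the libraries were chosen on these values. The Lyve1/Folr2+ cells were higher in C4b, a complement component, in all 3 libraries (266 against 15.5 CPM in S1, 109 against 14.9 in S3, 161 against 16.5 in S4). Clec10a, a lectin that binds galactose and N-acetylgalactosamine, stood at 850 against 137 CPM in S1, 564 against 95.9 in S3 and 661 against 89.3 in S4. Ccl24, a chemokine for eosinophils, stood at 409 against 33.2, 237 against 102 and 325 against 57.7 CPM. The same held for Ednrb, Fcna (a ficolin of the lectin pathway), F13a1, Cbr2, Cd163, and Timd4, a receptor for phosphatidylserine on dying cells. Over the list of resident macrophage genes, 11 of 13 were higher in every library, with a median log2 ratio of 1.51, beside 1070 of all 3639 genes and a median of 0.01.

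The other macrophages of these libraries were higher in genes of another kind. Cx3cr1 stood at 610 CPM outside the gate and 41.5 CPM in it in S1, 822 and 327 in S3, and 764 and 200 in S4. Ccr2, the receptor that draws monocytes from blood, stood at 342 and 74.5 CPM in S1, 181 and 11.7 in S3, and 166 and 0 in S4. Clec12a, an inhibitory lectin of myeloid cells, Fabp5 and Axl, a receptor for Gas6 in the clearance of dying cells, were also higher outside the gate in all 3 libraries. Of the cell cycle genes, 22 of 23 were lower in the Lyve1/Folr2+ cells in every library (median log2 ratio -1.81). Igf1 was higher in the gate in S3 and S4 and lower in S1 (313 against 358 CPM).

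MHC class II genes encode the molecules that present peptides to helper T cells. MHC II+ macrophages, with at least 3 UMIs of H2-Aa, H2-Ab1 and H2-Eb1 together, were 4.11% in S1, 5.36% in S2, 4.74% in S5 and 5.59% in S6 in WT, and 4.55% in S3, 2.78% in S4, 2.34% in S7 and 6.06% in S8 in Het. The genotypes overlapped. Het minus WT was -1.02 percentage points (exact permutation test, p = 0.314, adjusted over the 3 gates 0.943). Without thinning the share ran from 3.15% in S4 to 16.4% in S2, and Het minus WT was -3.40 (exact permutation test, p = 0.314). By the same gate, 7.94% to 35.3% of monocytes, 0% to 5.26% of osteoclast lineage cells and at most 0.345% of the drawn cells without haematopoietic markers were positive. The macrophage share lay above that last background in every library.

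With at least 3 UMIs in each, the 2 gates did not meet. None of the Lyve1/Folr2+ macrophages was MHC II+ in S1 (0 of 132), S3 (0 of 44) or S4 (0 of 81), against 10.3%, 7.58% and 4.44% of the others. The mean difference was -7.46 percentage points ± 2.95 (SD, n = 3 libraries; exact sign-flip test, p = 0.25, the smallest p that 3 libraries allow). With at least 2 UMIs in both gates, 5 libraries could be used, 2 of 139 Lyve1/Folr2+ cells in S1 (1.44%) and none in the others were MHC II+, all 5 had the lower share in the Lyve1/Folr2+ cells, and the mean difference was -6.62 (exact sign-flip test, p = 0.0625, again the smallest possible).

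By the gate on whole cells with at least 0.1% of UMIs, the MHC II+ cells were few, 52 in all and 4 to 9 per library. The test across genes was planned for libraries with at least 10 such cells and was not run. They were set beside the 1181 other macrophages as a description, pooled over libraries. Cd74, the invariant chain that escorts class II molecules, stood at 12809 CPM against 92.9 CPM. The class II transactivator Ciita, the peptide loading factors H2-DMa and H2-DMb1, and Ccr2 (1265 against 68.6 CPM) were higher in the MHC II+ cells in 8 of 8 libraries. Retnla, a secreted protein of alternatively activated and serosal macrophages, stood at 15922 against 230 CPM in S1 and 2379 against 29.2 CPM in S3, and was at 0 in both groups in S2, S6, S7 and S8.

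Lower in the MHC II+ cells in 8 of 8 libraries were the chemokine Ccl12 (0 against 234 CPM), Cbr2 (0 against 159 CPM), Gas6, the bridging ligand that marks dying cells for uptake (22.2 against 402 CPM), Stab1 (53.6 against 704 CPM) and the iron exporter Slc40a1 (16.6 against 154 CPM). Of the resident macrophage genes, 9 of 12 were lower in every library (median log2 ratio -2.14), beside 251 of all 4050 genes. Lyz2, lysozyme, was higher in the MHC II+ cells in 8 of 8 libraries (7442 against 2413 CPM). The monocyte gene Ly6c2 was close to 0 in both (3.70 and 3.59 CPM). Of the 7 monocyte genes with at least 20 CPM, 1 was higher in every library and 0 lower, with a median log2 ratio of 1.40. The 4 dendritic cell genes at that level had a median of 3.36, with 0 higher and 0 lower in every library. Of all 4050 genes, 120 were higher in every library.

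**Figure D3:**
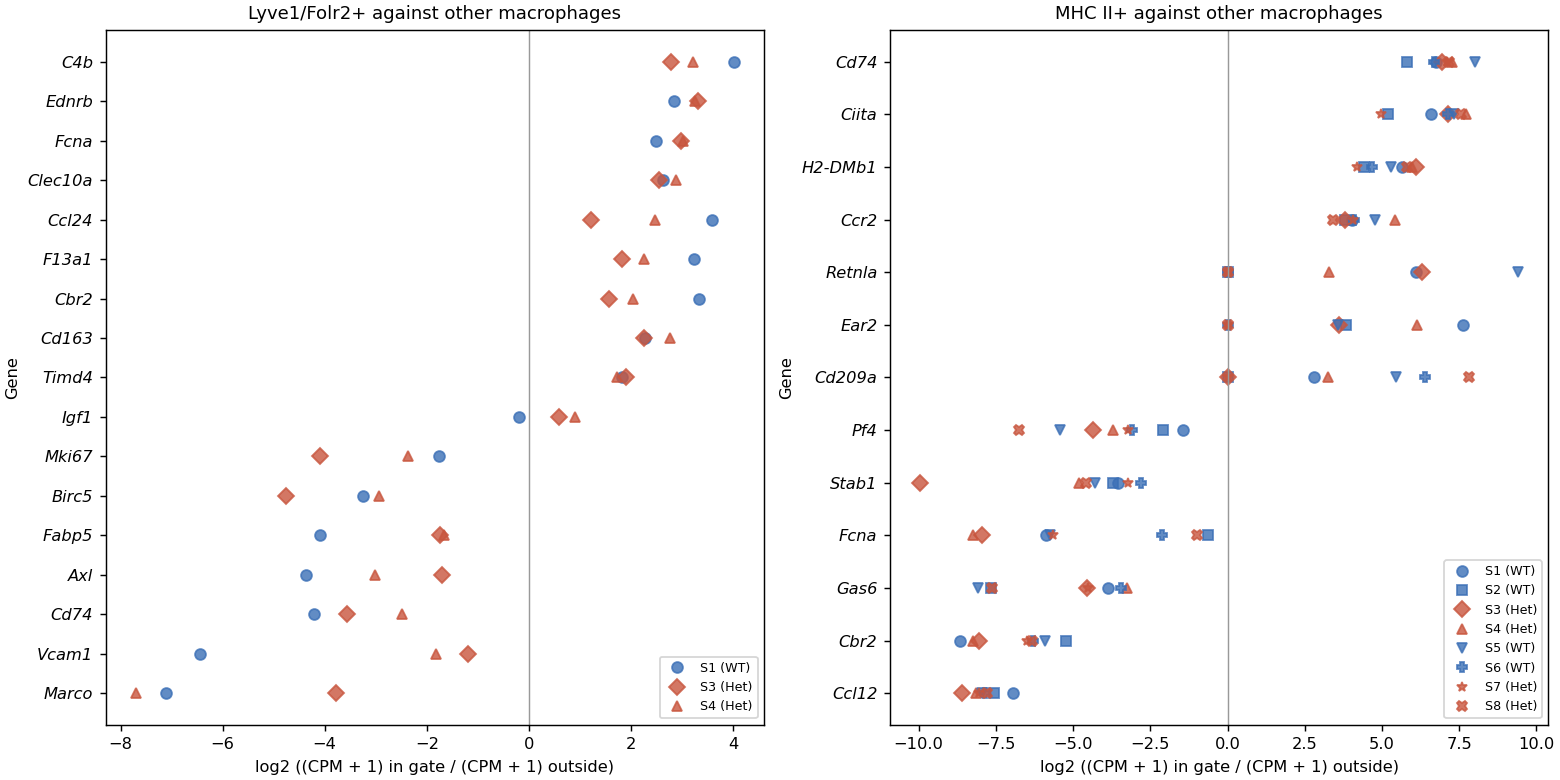
Log2 ratio of (CPM + 1) inside to outside a gate, 1 point per library. Left, Lyve1/Folr2+ against other macrophages in S1, S3 and S4, where C4b, Ednrb, Fcna and Clec10a lie to the right and Mki67, Birc5, Cd74 and Marco to the left. Right, MHC II+ against other macrophages in 8 libraries, where Cd74, Ciita and Ccr2 lie to the right and Pf4, Stab1, Cbr2 and Ccl12 to the left.

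Dividing macrophages were found in every library. With at least 3 UMIs of Mki67, Top2a, Cdk1, Birc5, Ube2c and Cenpf together, genes of DNA replication and mitosis, 6.39% of macrophages were cycling in S1, 14.3% in S2, 19.5% in S5 and 23.0% in S6 in WT, and 10.0% in S3, 10.6% in S4, 21.9% in S7 and 25.8% in S8 in Het. The share was higher in every kit 3.1 library than in every kit 3 library, and within each kit the genotypes overlapped. Het minus WT was 1.29 percentage points (exact permutation test, p = 0.8286, adjusted over the 3 gates 0.971). It was -0.02 within kit 3 and 2.59 within kit 3.1, and the test did not take the kit into account. Without thinning, 28.6% in S5 and 35.3% in S6 were cycling, against 54.6% in S7 and 51.5% in S8. With kit 3 these shares were 13.2% in S1, 32.8% in S2, 16.8% in S3 and 13.8% in S4. Macrophages of S7 and S8 were also deeper than those of S5 and S6, and the part of depth was not tested. Monocytes of the same libraries held 4.35% to 22.2% such cells and the drawn cells without haematopoietic markers 3.95% to 51.8%. Free RNA of these genes could thus add to the share, and its part was not tested. Among Lyve1/Folr2+ macrophages 2.27%, 0% and 2.47% were cycling in S1, S3 and S4, against 12.6%, 16.7% and 15.6% of the others (mean difference -13.4 ± 3.16, SD, n = 3 libraries, exact sign-flip p = 0.25, the smallest possible). Cycling and other macrophages differed in their MHC II+ share by -1.10 percentage points on average over 7 libraries (exact sign-flip p = 0.563).

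Macrophages were next compared with the monocytes of the same libraries, the circulating cells that can give rise to macrophages. A monocyte held at least 2 UMIs of at least 2 of Ly6c2, Ccr2 and Ms4a6c and did not meet the macrophage rule (627 cells, 10 to 255 per library). The genes of both gates were left out, and since both gates used marker genes, a difference of genes that go with those markers follows in part from the choice of cells. UMIs were summed per library and tested with edgeR with the library as a block (standard errors after ±). Of 8227 genes tested, 2638 (32.1%) passed, 1317 higher (16%) and 1321 lower (16.1%) in macrophages, with a median log2 fold change of 0.04 over all genes.

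Of 13 resident macrophage genes tested, 12 were higher in macrophages (median 5.79). Pf4, platelet factor 4, which tissue macrophages also make, was at 3396 ± 1195 scaled CPM (SD, n = 8) in macrophages and 4.81 ± 3.28 in monocytes (log2 difference 9.58 ± 0.22, edgeR adjusted p = 9.0e-13). Gas6 was at 401 ± 247 against 6.14 ± 6.90 scaled CPM (6.34 ± 0.25), Stab1 at 692 ± 215 against 16.4 ± 15.7 (5.79 ± 0.30) and Igf1 at 280 ± 81.5 against 12.3 ± 11.3 (4.65 ± 0.25). Maf, a transcription factor of resident macrophages, was at 1270 ± 462 against 86.9 ± 41.5 (3.96 ± 0.18). Each of the genes given here with values was higher in 8 of 8 libraries.

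Among the 8 largest rises by the naming rule were also Fcrls, an Fc receptor-like scavenger receptor (589 ± 196 against 7.35 ± 11.3 scaled CPM), and Ms4a7 (909 ± 114 against 14 ± 11.4). Cbr2, Slc40a1, Ccl12 and the organic anion transporter Slco2b1 were at 0 in most monocyte libraries and at 37.6 to 412, 61.6 to 435, 124 to 392 and 50.9 to 129 scaled CPM in macrophages, and their fold rests on very few monocyte UMIs. Of 12 iron genes tested 10 were higher and 1 lower (median 1.03), of 24 lysosome genes 14 were higher and 4 lower (median 0.64), and of 16 receptors and bridging proteins for uptake 10 were higher. The protease Ctsb was at 2463 ± 588 against 602 ± 198 scaled CPM (2.06 ± 0.17), the uptake kinase Mertk at 97.2 ± 34.1 against 8.11 ± 9.67 (4.14 ± 0.38), and Hmox1 at 465 ± 421 against 72.5 ± 29.9 (2.57 ± 0.32).

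All 7 MHC class II genes tested were lower in macrophages than in monocytes (median -2.71), and so were all 8 monocyte genes outside the gate (median -3.28). Cd74 was at 645 ± 209 against 4157 ± 2897 scaled CPM (SD, n = 8; log2 difference -2.43 ± 0.24), Ciita at 6.33 ± 3.37 against 62.9 ± 46.7 (-3.16 ± 0.45), and Lyz2 at 2747 ± 1119 against 13096 ± 4599 (-2.26 ± 0.10), each lower in 8 of 8 libraries. The largest falls included Hp, haptoglobin, which binds free haemoglobin (3.65 ± 5.68 against 460 ± 278, -7.11 ± 0.32), Plac8 (42.8 ± 63.6 against 1832 ± 999, -6.42 ± 0.44), coagulation factor F10 (1.49 ± 1.47 against 115 ± 54.4, -6.68 ± 0.39) and Cd209a, a lectin of monocyte-derived dendritic cells (2.89 ± 3.04 against 161 ± 123, -5.59 ± 0.47). The neutrophil collagenase Mmp8, the granule protein Pglyrp1, the NK receptor Klrd1 and Mcemp1 completed the 8. Of 20 immediate early and heat shock genes that can respond to tissue digestion, 12 were lower in macrophages and 1 higher (median -0.83), with Fos at 906 ± 320 against 1892 ± 860 (-1.03 ± 0.12).

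The second comparison was with osteoclast lineage cells, gated on Acp5, Ctsk and Mmp9 or Atp6v0d2 (248 cells, 13 to 58 per library). Of 8752 genes tested, 4438 (50.7%) passed, 2347 higher (26.8%) and 2091 lower (23.9%) in macrophages. With so many genes on 1 side or the other, a count within a list is to be read against these shares, and the sizes are given. All 13 resident genes tested were higher in macrophages (median 4.78), 9 of 10 chemokines were higher and 1 lower (median 5.25), 6 of 7 Fc receptor genes were higher and 1 lower (median 3.54), 5 of 6 class II genes (median 4.01) and 9 of 9 interferon response genes (median 2.08) were higher.

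F13a1 was at 782 ± 594 scaled CPM (SD, n = 8) in macrophages and 0.681 ± 0.905 in the osteoclast lineage (log2 difference 8.97 ± 0.26). Fcgr1, the high affinity Fc receptor, was at 165 ± 65.9 against 2.36 ± 3.28 (6.01 ± 0.40), and Cd74 at 633 ± 198 against 81.9 ± 95.7 (3.44 ± 0.47). Ccl7, Ccl4 and Ccl12, chemokines for monocytes and lymphocytes, the lectin Mgl2, Ly86, which associates with a Toll-like receptor homologue, and Cd33, a sialic acid receptor, were at 0 in most osteoclast lineage libraries. Their levels in macrophages were 65.2 to 163, 10.4 to 155, 129 to 389, 23.9 to 313, 142 to 480 and 84.7 to 164 scaled CPM.

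Of 10 osteoclast genes tested, 9 were lower in macrophages and 1 higher (median -2.48). Nfatc1, the master transcription factor of osteoclasts, was at 66.3 ± 18.4 against 694 ± 88.3 scaled CPM (SD, n = 8; -3.41 ± 0.13) and remained detectable in the macrophages of every library (45.7 to 99.2). The fusion genes Dcstamp and Ocstamp were at 0 to 9.32 against 152 to 339 and at 0.569 to 4.0 against 90.2 to 354 scaled CPM (-6.98 ± 0.43 and -6.74 ± 0.26). Oscar, the osteoclast costimulatory receptor, was at 0 to 0.932 against 15.0 to 99.5. Tnfrsf11a differed far less, at 203 ± 130 against 335 ± 160 (-0.80 ± 0.11), and was lower in macrophages in 8 of 8 libraries. Rufy4, Nyap2, Mt3, Slc9b2 and Akap6 completed the 8 largest falls. Of 24 genes of the integrated stress response 12 were lower and 3 higher in macrophages (median -0.48), and of 21 chaperones and other targets of the endoplasmic reticulum unfolded protein response 8 were lower and 2 higher.

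**Figure D4:**
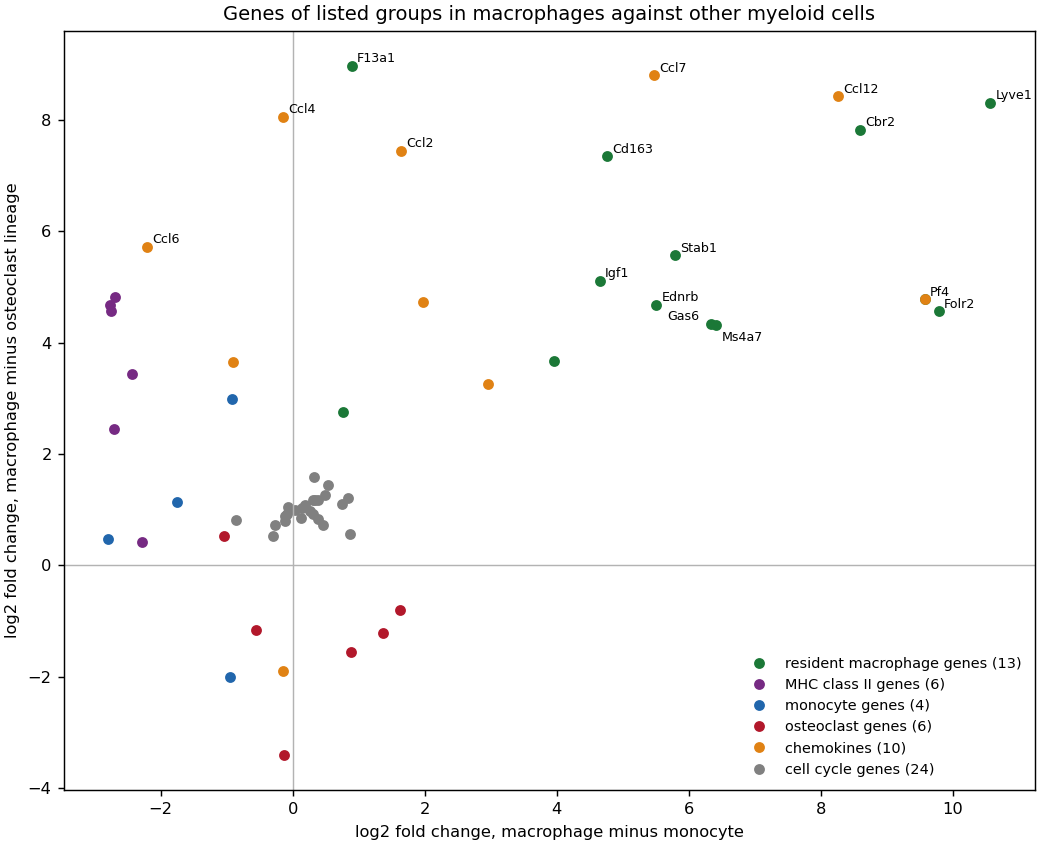
Log2 fold change of macrophages over monocytes (x axis) and over osteoclast lineage cells (y axis) for genes of 6 lists, 1 point per gene. Resident macrophage genes lie high on both axes, class II genes below 0 on the x axis and above 0 on the y axis, and osteoclast genes low on the y axis.

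The design asks above all whether a mutation of a collagen that bone-forming cells make went with a different state of the macrophages beside them. Macrophage UMIs were summed per library and Het was compared with WT with edgeR, with the kit as a covariate. Of 9662 genes tested, 0 passed at an adjusted p of 0.05 (0%), 729 had an unadjusted p under 0.05, and DESeq2 called 50 (9 higher and 41 lower in Het). The median log2 difference over all genes was -0.02, and 53.7% of genes were lower in Het. Leaving out S2, the smallest library, 111 of 10445 genes tested passed, 25 higher and 86 lower. S1 was then the only WT library with kit 3, so within kit 3 that fit set S1 against S3 and S4. S1 held the highest summed levels of the interferon and lysosome lists among the 8 libraries. Counts within a list without S2 are to be read against 111 of 10445. In a fit of all 8 libraries with a separate genotype term for each kit, 33 genes passed for kit 3 and none for kit 3.1. Differences between Het and WT are therefore given below as values that did not pass in the main fit, that of all 8 libraries with the kit as covariate. Those of the genes given that passed without S2 are named as such.

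The genes with the lowest p were Irf7, Pld3, Tmem176a, Casp4, Apobec3, Zbp1, Tmcc3, Irf8, Slc40a1 and Rasa4, all lower in Het with adjusted p from 0.0796 to 0.136. Each kept its direction in every alternative that tested it, and each passed without S2. In fits of all 8 libraries, Irf7 passed without macrophages holding markers of another class (-2.69, edgeR adjusted p = 0.000311). It also passed without the 5% of macrophages with most UMIs (-2.30, adjusted p = 0.0200) and with no filter on low counts. It did not pass with 2 or 4 genes required by the rule, with mitochondrial UMIs under 5% or with thinned cells (adjusted p = 0.0567 to 0.201). Pld3 passed with thinned cells (-1.41, adjusted p = 0.00833). With mitochondrial UMIs under 5%, Slc40a1 differed by -0.26 (adjusted p = 0.9997) and Pld3 by -0.68 (adjusted p = 0.447). Pld3, a lysosomal exonuclease that limits nucleic acid sensing, was at 205 and 239 scaled CPM in WT and 70.9 and 79.2 in Het with kit 3, and at 88.8 and 94.2 against 54.8 and 59.3 with kit 3.1 (log2 difference -1.09 ± 0.17, edgeR adjusted p = 0.131). Irf8, a transcription factor of monocytes and macrophages, was at 188 and 205 in WT and 130 and 137 in Het with kit 3, and at 81.6 and 90.4 against 52.5 and 49.4 with kit 3.1 (-0.65 ± 0.11, adjusted p = 0.133). Slc40a1, ferroportin, which exports iron, was at 293 and 444 against 199 and 194, and at 99.8 and 117 against 65.3 and 61.8 (-0.83 ± 0.15, adjusted p = 0.133). For these 3 genes both WT libraries lay above both Het libraries within each kit, as for 4.49% of all genes, with 2.83% the other way round. All 3 were taken from the genes of lowest p in these same libraries, which the alternatives also use, so this describes the genes shown and adds no support. Without S2 the values were -0.99 for Pld3 (adjusted p = 0.0176), -0.63 for Irf8 (adjusted p = 0.0269) and -0.67 for Slc40a1 (adjusted p = 0.0175).

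Interferon response genes, which cells switch on after type I interferon binds its receptor, were the immune list with the lowest median difference. All 17 tested were lower in Het, 12 of them with an unadjusted p under 0.05, with a median log2 difference of -0.91 (-1.06 within kit 3, -0.42 within kit 3.1). None passed. Irf7, the transcription factor that amplifies the interferon response (chromosome 7, 141262706 to 141266481, minus strand), was at 141 and 122 scaled CPM in WT and 27.2 and 17.9 in Het with kit 3, and at 22.6 and 22.4 in WT and 7.13 and 11.5 in Het with kit 3.1. WT lay above Het within each kit, but the kits differed so much that Het of kit 3 overlapped WT of kit 3.1. The log2 difference was -2.06 ± 0.26 (edgeR adjusted p = 0.0796), -2.61 within kit 3 and -1.36 within kit 3.1. Isg15, a ubiquitin-like modifier, was at 184 and 147 in WT and 34.7 and 29.2 in Het with kit 3, and at 20.6 and 17.4 against 15.4 and 9.06 with kit 3.1 (-1.60 ± 0.33, adjusted p = 0.183). Zbp1, a sensor of Z-form nucleic acids, was at 101 and 51.2 against 22.6 and 15.1, and at 7.20 and 7.88 against 3.38 and 3.29 (-1.83 ± 0.31, adjusted p = 0.131).

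The interferon result leaned on single libraries. S1 was the highest library of the summed list, at 7308 CPM against 1980 in S2, 2114 in S3, 2480 in S4 and 844 to 1154 CPM with kit 3.1. Without S1, 11 of 15 genes were lower in Het and the median was -0.34. Without S2, 18 of 18 were lower and 5 passed, beside 111 of all 10445 genes. The 5 were Irf7 (-2.07, adjusted p = 0.0108), Zbp1 (-2.04, adjusted p = 0.0140), Oasl2 (-1.83, adjusted p = 0.0175), Ifit1 and Isg15 (-1.62, adjusted p = 0.0485). S1 and S2 were also the libraries with the most haematopoietic cells and the highest neutrophil and lowest cartilage sums, and the part of this in the result was not tested. In S1, Irf7 was at 129 CPM in Lyve1/Folr2+ macrophages and 126 CPM in the others, and Isg15 at 165 and 169 CPM. Over S1, S3 and S4, 8 of 18 genes of the list were higher in Lyve1/Folr2+ cells in every library and 0 lower (median log2 ratio 1.09), and these cells were 60.3% of the macrophages in S1. Their part in the result was not tested.

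The promoters of these genes were read from RefSeq (GRCm38.p6) because the factors downstream of the interferon receptor bind a short element there. The motif searched was GAAA, then any 2 bases, then GAAA again, on both strands, from 250 bases before to 50 bases after the start of each gene. It was present in 1131 of 32851 windows (3.44%), and in 9 of the 13 tested interferon genes with a window (69.2%). The windows of Irf7, Oasl2, Xaf1 and Ifit2 did not hold it. The stretch from 160 to 41 bases before the start is shown for 4 genes, 5′ to 3′ on the strand of the gene, with each match in capitals. They are on chr4:156200859-156200978 (Isg15, minus strand), chr8:71537513-71537632 (Bst2, minus strand), chr19:34583369-34583488 (Ifit3, plus strand) and chr19:34640729-34640848 (Ifit1, plus strand).
Isg15: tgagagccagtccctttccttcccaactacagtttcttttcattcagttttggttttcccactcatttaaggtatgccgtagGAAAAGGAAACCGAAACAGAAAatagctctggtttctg
Bst2: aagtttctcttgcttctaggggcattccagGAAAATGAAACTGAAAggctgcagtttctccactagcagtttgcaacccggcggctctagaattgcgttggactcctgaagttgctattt
Ifit3: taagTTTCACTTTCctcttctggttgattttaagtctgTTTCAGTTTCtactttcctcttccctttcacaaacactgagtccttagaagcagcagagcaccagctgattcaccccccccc
Ifit1: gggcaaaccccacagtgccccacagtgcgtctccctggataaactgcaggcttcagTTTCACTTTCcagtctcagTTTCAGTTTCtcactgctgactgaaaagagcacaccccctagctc

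In Isg15 and Bst2 the matches run into each other on the strand of the gene, and in Ifit3 and Ifit1 there are 2 separate matches on the other strand. Bst2, tetherin, which holds budding virus at the cell surface, was at 727 and 463 scaled CPM in WT and 294 and 284 in Het with kit 3, and at 177 and 133 against 120 and 128 with kit 3.1 (-0.69 ± 0.19, edgeR adjusted p = 0.316). Ifit1 and Ifit3, which bind viral RNA, were dominated by S1, with 82.4 and 119 scaled CPM there and 1.51 to 15.4 and 2.47 to 25.6 scaled CPM in the other 7 libraries. The share of windows with the motif is a description of the list, and no binding was measured.

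MHC class I genes, which present peptides to cytotoxic T cells and respond to interferon, were also lower in Het. All 10 tested had a negative difference, 8 with an unadjusted p under 0.05 and none passing (median log2 difference -0.50, with -0.58 within kit 3 and -0.33 within kit 3.1). B2m, the light chain shared by all class I molecules, was at 2326 and 1517 scaled CPM in WT and 1539 and 1240.1 in Het with kit 3, and at 1259 and 1099 against 844 and 824 with kit 3.1 (-0.49 ± 0.14, edgeR adjusted p = 0.353). The peptide transporter Tap1 was at 98.7 and 64.0 against 31.7 and 35.8, and at 25.4 and 28.6 against 24.8 and 19.8 (-0.77 ± 0.24). Within kit 3, WT and Het overlapped for B2m and did not for Tap1. Without S2, B2m (-0.59), H2-K1 (-0.71) and H2-D1 (-0.58) passed. All 7 class II genes tested were lower as well, none with an unadjusted p under 0.05 (median -0.35).

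The genes by which macrophages handle lipid, iron and lysosomal cargo had the same sign. Of 15 lipid genes tested 13 were lower in Het, 9 with an unadjusted p under 0.05 (median -0.72), of 13 iron genes all 13, also 9 of them (median -0.44), and of 24 lysosome genes 23, 11 of them (median -0.27). None passed in the main fit. Without S2, 4 of 15 lipid genes (Abcg1, Pltp, Fabp5, Gpnmb), 3 of 13 iron genes (Slc40a1, Ftl1, Spic) and 4 of 25 lysosome genes (Ctsd, Ctsh, Psap, Lipa) passed. All of them were lower in Het, and 111 of all 10445 genes passed in that fit. The cholesterol exporter Abcg1 was at 49.3 and 53.3 scaled CPM in WT and 13.6 and 11.3 in Het with kit 3, and at 18.7 and 17.4 against 7.88 and 12.4 with kit 3.1 (-1.44 ± 0.26, edgeR adjusted p = 0.148, and 0.0416 without S2). Lipa, the lysosomal lipase, was at 281 and 233 against 127 and 172, and at 129 and 112 against 82.9 and 80.7 (-0.67 ± 0.14, adjusted p = 0.183, and 0.0349 without S2). Ftl1, the ferritin light chain, was at 8554 and 9642 against 6591 and 7204, and at 6015 and 5838 against 4017 and 3438 (-0.53 ± 0.11, adjusted p = 0.168, and 0.0299 without S2). Psap, the precursor of the saposins, was at 1457 and 1444 against 890.3 and 1027, and at 926 and 955 against 683 and 694 (-0.52 ± 0.11, adjusted p = 0.173, and 0.0344 without S2). For each of these 4 genes both WT libraries lay above both Het libraries within each kit, as for 4.49% of all genes, with 2.83% the other way round. All 4 were taken from the genes that passed without S2, so this describes the genes shown and not the lists.

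S2 was the highest library for Spic, Vcam1 and Hmox1. Spic had a log2 difference of -2.98 ± 0.72 (adjusted p = 0.262) with S2 and -1.94 (adjusted p = 0.0344) without it, and Vcam1 -2.70 ± 0.57 (adjusted p = 0.194) with S2 and -2.12 (adjusted p = 0.0242) without it. Hmox1 was at 533 and 1466 scaled CPM in WT and 195 and 211 in Het with kit 3, but at 567 and 161 against 263 and 371 with kit 3.1, where WT and Het overlapped. The erythroid sum of the macrophages was high in S1, S2 and S3 and low in S4, and its part in the iron genes was not tested.

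Resident macrophage genes showed no common direction. Of 15 tested, 11 were lower in Het with a median of -0.03 (0.10 within kit 3 and -0.22 within kit 3.1), 1 had an unadjusted p under 0.05, and without S1 12 of 15 were higher with a median of 0.27. Of 18 uptake receptors 11 were lower (median -0.05), of 24 cell cycle genes 14 were higher (median 0.04), of 14 inflammatory genes 11 were lower (median -0.43), and of 14 chemokines 9 were lower (median -0.24). The cell cycle list turned on single libraries. Without S2, 21 of 24 genes were higher (median 0.24) and the replication helicase genes Mcm3 (0.64, adjusted p = 0.0457), Mcm5 (0.76, adjusted p = 0.0175) and Mcm7 (0.76, adjusted p = 0.0366) passed, and without S1, 17 of 24 were lower (median -0.16). Of the chemokines, Ccl6 (-1.35, adjusted p = 0.0108) and Ccl8 (-1.63, adjusted p = 0.0344) passed without S2. Ednrb, which was among the genes with the lowest p without S2 (-1.34, adjusted p = 0.00277), was also higher in Lyve1/Folr2+ cells, whose share was highest in S1.

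Factors by which macrophages can act on bone cells were measured too. All 13 tested were lower in Het, 6 with an unadjusted p under 0.05 and none passing (median -0.36, with -0.43 within kit 3 and -0.46 within kit 3.1). Tgfb1, which couples bone formation to resorption, was at 290 and 286 scaled CPM in WT and 214 and 242 in Het with kit 3, and at 280 and 272 against 208 and 207 with kit 3.1 (-0.37 ± 0.11, edgeR adjusted p = 0.321). All 4 WT libraries lay above all 4 Het libraries for this gene alone of the 13, as for 0.942% of all genes. Bmp2, a bone morphogenetic protein, was at 62.8 and 25.6 against 21.1 and 25.5, and at 12 and 27 against 11.6 and 9.06 (-0.97 ± 0.32). Osm, oncostatin M, which drives osteoblast differentiation, was at 8.41 and 21.3 against 4.53 and 8.49, and at 11.5 and 10.8 against 6.0 and 5.76 (-0.87 ± 0.33). Igf1 was at 368 and 286 against 309 and 390, and at 283 and 291 against 203 and 131 (-0.35 ± 0.21), and overlapped within kit 3.

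Matrix genes had the opposite sign. Of 14 tested, 13 were higher in Het, 5 with an unadjusted p under 0.05 and none passing (median 0.46). Without S7, 9 of 15 were higher and 6 lower (median 0.20). Ctsk, the collagen-cleaving cathepsin K, was at 30.3 and 12.8 scaled CPM in WT and 72.4 and 40.5 in Het with kit 3, and at 25.0 and 21.2 against 47.3 and 109 with kit 3.1 (1.47 ± 0.32, edgeR adjusted p = 0.21), so that all 4 Het libraries lay above all 4 WT libraries, which held for 1 of the 14 genes and 0.704% of all genes. In the osteoclast lineage cells, which were gated on it, Ctsk was at 4818 to 11042 CPM. Tgfbi, a matrix adhesion protein, was at 348 and 469 against 492 and 439, and at 411 and 433 against 617 and 622 (0.38 ± 0.13), and passed without S2 (0.51). Cartilage genes, which macrophages do not express, were higher in Het in 11 of 11 (median 1.25, with 3.47 within kit 3 and 0.73 within kit 3.1), and osteoblast genes in 7 of 12 (median 0.10, with 1.28 within kit 3 and -0.82 within kit 3.1). Their part in the matrix genes, of which Sparc and Fn1 are also made by bone and cartilage cells, was not tested.

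Genes of stress responses were read in the macrophages as well. In osteoblasts with the mutation, the paper reports the integrated stress response without the unfolded protein response of the endoplasmic reticulum. Of 25 genes of the integrated stress response 13 were higher in Het, 1 with an unadjusted p under 0.05 (median 0.06), and of 21 genes of the unfolded protein response 14 were higher, again 1 (median 0.03). Both medians lay close to that of all genes, -0.02.

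**Figure D5:**
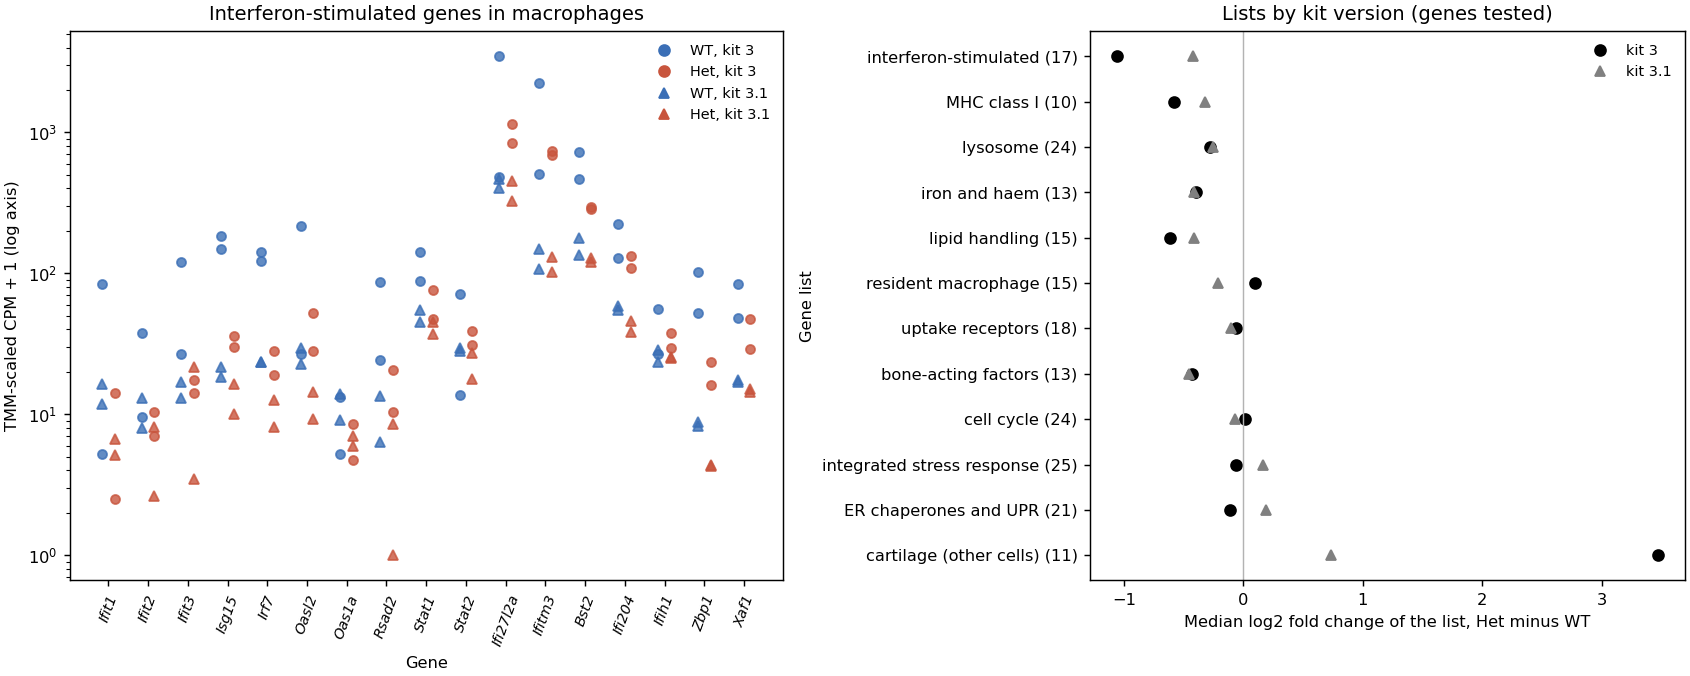
Left, scaled CPM + 1 of 17 interferon response genes in each library (log axis), with S1 highest for most genes and WT of kit 3 above Het of kit 3 for Irf7, Isg15 and Zbp1. Right, median log2 difference of Het minus WT of 12 gene lists within kit 3 and within kit 3.1, none of whose genes passed in the main fit.

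Whether a difference was larger in macrophages than in monocytes was tested as a genotype by cell type term. Of 8227 genes, 0 passed (413 at an unadjusted p under 0.05, and 1 by DESeq2). Irf7 differed between Het and WT by 1.99 log2 units more in the downward direction in macrophages (-1.99 ± 0.35, edgeR adjusted p = 0.0784), and in monocytes alone its difference was -0.07 ± 0.29. Isg15 had a term of -1.64 ± 0.59 and a difference of 0.01 ± 0.57 in monocytes. Irf8 had a term of 0.15 ± 0.35 and a difference of -0.76 ± 0.34 in monocytes. In monocytes 0 of 3985 genes passed (271 at an unadjusted p under 0.05). These terms do not show that any genotype difference was particular to macrophages.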

How the data were processed

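The authors deposited UMI counts of genes in cells without normalization, as Cell Ranger 5.0.0 (S1 to S4) or 6.0.1 (S5 to S8) gave them, with mm10 named as build in the submitters' processing notes. They listed 31053 genes and 68625 cell barcodes. UMI counts of macrophages were summed per library (517741 to 2441011). Genes were filtered with filterByExpr and tested with edgeR 4.0.16 (TMM, glmQLFit, glmQLFTest, limma 3.58.1, R 4.3.3) with the kit as covariate, or with the library as a block between cell types. P-values were adjusted by Benjamini-Hochberg and called under 0.05, with DESeq2 1.42.0 as an alternative. Scaled CPM are divided by TMM-scaled library sizes, and all other CPM by total UMIs. Libraries with under 10 cells of a type were to be left out of these fits. Standard errors were computed as the log2 difference over the root of the F statistic. The macrophages and the gene lists were chosen with earlier results of these data known.

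Cells were thinned to 2000 UMIs for shares in gates. Shares were compared by exact permutation tests over libraries and by exact sign-flip tests within libraries, all two-sided, in scipy 1.17.1, with exact Clopper-Pearson 95% intervals. Doublets were kept, and as an alternative those macrophages that held markers of a different class were dropped. Promoters came from RefSeq for GRCm38.p6 and gene positions from GENCODE M21 for GRCm38. Named genes were the 10 of lowest p with at least 20 CPM for Het against WT (under 5 were called), and between cell types the 8 largest differences in each direction among called genes with at least 50 CPM in the higher cells, gate genes and haemoglobin left out. For the lists, examples were taken from the 4 members of highest level and from members with a role in bone or in the interferon response, and the latter were chosen after their values were seen. The scripts were tested on simulated counts before use. The same-numbered WT and Het libraries did not deviate together (correlation -0.0883 for kit 3 and 0.0206 for kit 3.1 over 6827 genes), so the numbers were not used as pairs.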

Additional observations from a re-analysis of the deposited data

Results flagged for a closer look

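Of 52 groups of 4 libraries examined, 4 held a library far from the other 3, and chance alone gives about 1 in 20. The share of Lyve1/Folr2+ macrophages was 60.3% in S1 against 0.526% to 1.86% in the other WT libraries. The summed level of the interferon response list was 7308 CPM in S1 against 973 to 1980 CPM in the other WT libraries, and that of the lysosome list was 19725 CPM against 14308 to 15029 CPM. The neutrophil genes summed to 19.8 CPM in S4 against 2.70 to 4.13 CPM in the other Het libraries.

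The difference between Het and WT was not the same with both kits for 5 genes outside the rule by edgeR's test of the kit by genotype term. Egr1 and Fosb, immediate early genes, had log2 differences of 1.10 and 0.97 within kit 3 and -0.79 and -0.78 within kit 3.1 (adjusted p = 0.0435 each). Sfrp2, a secreted Wnt modulator of mesenchymal cells, had 3.20 and -1.97 (adjusted p = 0.0266). For the growth regulating RNA H19 the values were 2.44 and -0.15, and for Fcrls 1.38 and -0.14 (adjusted p = 0.0435 each).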

How the results depend on the processing

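Leaving out each library in turn, Het minus WT ranged from -0.675 to 0.539 percentage points for the share of all cells, from 16.5 to 30.3 for the share among macrophages and cells with haematopoietic markers (exact permutation p = 0.0286 without S6 only), from -1.73 to -0.487 for MHC II+, from -3.09 to 18.4 for Lyve1/Folr2+ and from -1.84 to 3.69 for cycling macrophages. Under 5% mitochondrial UMIs the share of all cells differed by 0.210. With at least 5 UMIs in the gate, the Lyve1/Folr2+ share differed by -0.986 and the cycling share by -0.724. These 3 shares thus had no stable direction, and the cause was not tested. Het against WT gave 0 to 111 genes when a library was left out (111 without S2, 1 without S6 and 1 without S8), 4 without macrophages holding markers of another class, 5 without the 5% of macrophages with most UMIs, 2 with cells thinned to 2000 UMIs, 353 with no filter on low counts, 50 by DESeq2, and 0 with the replicate number as a block, which changed no call. Thinning left fewer genes to test and gave 1046 genes against monocytes and 964 against osteoclast lineage cells. Without 1 library these counts were 2022 to 2581 and 3774 to 4410. The genotype by cell type term gave 1 gene by DESeq2. Over the alternatives, the list medians ranged from -1.25 to -0.34 (interferon), -0.57 to -0.37 (MHC class I), -0.32 to -0.17 (lysosome), -1.09 to -0.30 (lipid), -0.49 to -0.24 (iron) and 0.92 to 1.96 (cartilage). The planned test of MHC II+ against other macrophages and its alternatives were not run, since no library held 10 such cells with at least 0.1% of UMIs in the gate genes. S2, with 61 macrophages, limits the precision of WT with kit 3.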
